A study of Mus musculus with 16 samples.

Results

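The axon guidance genes analysed here encode the semaphorins with their plexin and neuropilin receptors, the Slits with the Robo receptors, the netrins with the Unc5 receptors, and the ephrins with the Eph receptors. They were taken by gene symbol and kept where the deposited table calls the gene protein coding, which gave 66 genes among the 54532 listed. Expression was measured by RNA-seq in aortas stripped of adventitia, the outer coat of the vessel. All donors were male Apoe-/- mice of strain C57BL/6j, aged 8 to 12 weeks, and both groups carried an osmotic pump for 7 days. The 8 control libraries (Saline 1 to 8) came from mice given 0.9% sodium chloride, and the other 8 (Ang II 1 to 8) from mice given angiotensin II at 1000 ng/kg/min. Angiotensin II is a peptide hormone that constricts arteries and is infused into such mice as a model of aortic wall disease. By the labels both groups lack Apoe, and no group is labelled as having normal apolipoprotein E. The column names of the deposited table begin with WT although the labels give Apoe-/- for each sample. Apoe was at 14.7 to 110 FPKM in the saline libraries and at 6.81 to 17.2 FPKM in the Ang II libraries. A level over the whole gene does not check the deletion, because transcript outside the deleted or disrupted part would still be counted, so these data do not establish the genotype.

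Guidance molecules were named for steering growing axons, and the same ligand and receptor pairs act in blood vessels. Class 3 semaphorins are secreted and signal through a complex of a neuropilin and a plexin, while most other semaphorins sit in the membrane and bind plexins directly. Slits are large secreted proteins that bind Robo receptors, netrins are laminin-related proteins that bind Dcc, neogenin and the Unc5 receptors, and ephrins are membrane-bound ligands of the Eph receptor tyrosine kinases. In vessels Efnb2 marks arterial and Ephb4 venous endothelium, Nrp1 is a co-receptor for vascular endothelial growth factor, and smooth muscle cells express several of the plexins and ephrins.

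Levels are given in FPKM, reads scaled by transcript length and by library size, as deposited. Reads could be recovered from the steps of these values, and library totals ran from 14606864 to 17590088 reads with saline and from 15779125 to 19988730 with Ang II. In a transcript of 1 kilobase, 1 read was worth 0.05 to 0.0685 FPKM. The length behind each value was the mean over the annotated transcripts of the gene, 1480 bases for Epha2 and 5078 for Unc5b, so the order of levels between genes depends on that annotation. Differences were tested with limma on log2(FPKM + 1), over all 15007 genes with a mean of at least 0.5 FPKM, and called at an adjusted p under 0.05. All fold changes are on that scale, which understates the change of genes of low level. The labels name each sample without naming the mouse behind it, so a p-value here measures the spread between samples. In whole tissue, fewer cells of a type and less RNA per cell cannot be told apart.

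Of the 66 guidance genes 51 reached the level for testing. With Ang II, 4 of the 51 were higher (Slit3, Epha2, Unc5b and Robo1), 10 were lower (Epha1, Sema6c, Ephb6, Sema5a, Plxnb1, Epha7, Sema4c, Ephb3, Sema3b and Nrp1), and 37 did not pass. Over all tested genes 9.54% were called higher and 24.9% were called lower, so both counts of guidance genes lay near what the whole table gives. The median log2 fold change was -0.08 over the 51 guidance genes and -0.12 over all tested genes. Scaling the libraries by median ratios moved the median over all genes to -0.003. After that scaling 6 guidance genes were called higher, against 14.9% of all genes, and 6 were called lower, against 14.1% of all genes. The 2 added to the higher genes were Plxna1 and Nrp2, and Nrp1, Sema3b, Sema4c and Ephb3 lost their calls. In 2 genes, Epha1 and Sema6c, every Ang II library lay below every saline library, and 5.62% of all tested genes did the same. No guidance gene had every Ang II library above every saline library, which 2.74% of all tested genes had. Ligands and receptors were both in each set: of 29 tested ligands 1 was higher and 4 lower, and of 22 tested receptors 3 were higher and 6 lower.

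**Figure D1:**
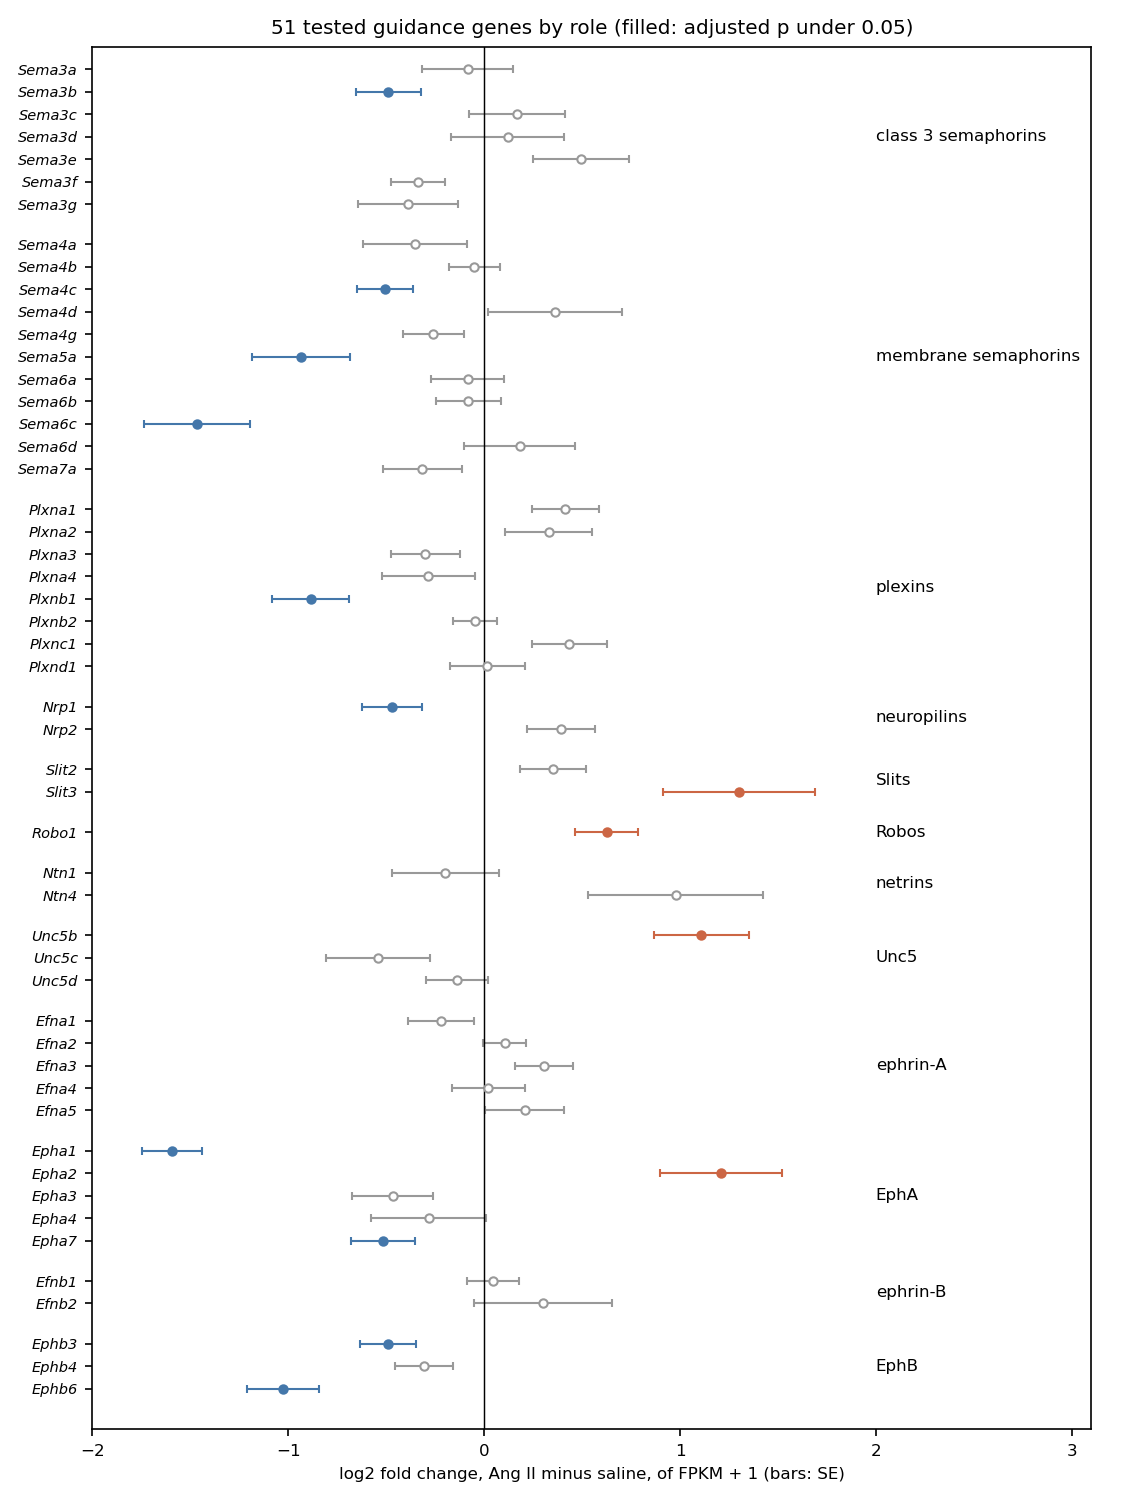
Log2 fold change of each of the 51 tested guidance genes (horizontal axis, Ang II minus saline on log2(FPKM + 1), bars are standard errors), in blocks by role, with filled points where the adjusted p is under 0.05. The 4 filled points to the right of 0 are Slit3, Robo1, Unc5b and Epha2, and the 10 to the left are led by Epha1 at -1.59 and Sema6c at -1.47.

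The bases just before the start of 4 of these genes are shown as examples of both directions: Epha1 and Sema6c, which fell with no overlap between the groups, and Epha2 and Unc5b, the 2 higher genes with 7 of 8 Ang II libraries above all saline libraries. These 4 were chosen after their values were seen. The sequences are RefSeq promoter windows of build GRCm38.p6, 250 bases ending at the base before the start, written 5′ to 3′ along the gene. RefSeq lists 2 starts for Sema6c, and the window of the start nearest to the gene's 5′ end in the deposited table is printed. Capitals mark a match, on either strand, to a GC box (GGGCGG, the site of Sp-family factors) or to a TEAD site (GGAATG, bound by the factors that carry YAP and TAZ).
Epha2, chr4:141300971-141301220, forward strand: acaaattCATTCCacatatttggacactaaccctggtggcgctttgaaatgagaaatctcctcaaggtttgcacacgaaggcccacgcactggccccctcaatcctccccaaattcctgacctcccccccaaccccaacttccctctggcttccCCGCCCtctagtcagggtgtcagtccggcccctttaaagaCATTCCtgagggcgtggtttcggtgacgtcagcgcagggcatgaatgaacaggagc
Unc5b, chr10:60831582-60831831, reverse strand: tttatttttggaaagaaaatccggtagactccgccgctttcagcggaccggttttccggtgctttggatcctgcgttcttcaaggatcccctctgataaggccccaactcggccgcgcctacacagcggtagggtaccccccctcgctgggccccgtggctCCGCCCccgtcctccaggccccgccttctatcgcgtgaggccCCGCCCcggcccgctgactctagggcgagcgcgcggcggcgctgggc
Epha1, chr6:42373269-42373518, reverse strand: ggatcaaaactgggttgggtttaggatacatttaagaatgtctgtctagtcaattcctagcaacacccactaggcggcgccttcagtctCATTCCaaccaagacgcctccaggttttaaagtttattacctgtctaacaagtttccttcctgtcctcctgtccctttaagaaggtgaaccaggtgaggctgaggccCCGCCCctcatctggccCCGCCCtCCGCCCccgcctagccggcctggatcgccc
Sema6c, chr3:95160170-95160419, forward strand: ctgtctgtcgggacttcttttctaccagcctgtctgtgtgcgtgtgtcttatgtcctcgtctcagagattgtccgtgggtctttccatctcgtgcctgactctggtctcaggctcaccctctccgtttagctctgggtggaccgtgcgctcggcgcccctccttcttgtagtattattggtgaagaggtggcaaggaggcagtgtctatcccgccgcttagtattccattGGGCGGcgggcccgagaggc
In Epha2 the TEAD letters began 243 and 56 bases before the start, with a GC box at 96. In Epha1 they began at 161, with GC boxes at 54, 37 and 30. Unc5b held GC boxes at 89 and 47, and Sema6c had 1 at 20. Searches for AP-1 sites (TGAGTCA or TGACTCA), the CArG box of serum response factor and the E-box CACGTG gave no match in these 4 windows. None of the motifs overlapped another.

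Such letters are common. Of 32851 windows of this length in the RefSeq table, 32.7% held a GC box, 12.6% a TEAD site, 4.46% an AP-1 site, 1.47% a CArG box and 6.02% the E-box. Windows were found for 57 of the 66 guidance genes. Here a gene counts once if any of its windows holds a match, while the shares above are over single windows. A gene can have several windows, so these counts and shares cannot be compared directly. A GC box was in 43 of the 57, including 3 of the 4 higher and 9 of the 9 lower genes that had a window. The TEAD letters were in 7 of the 57, including 1 of the 4 higher and 2 of the 9 lower genes. A match describes the letters and does not show that a factor binds.

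Among the 7 class 3 semaphorins, all of which were tested, 1 was lower with Ang II and 6 did not pass. Sema3f had the highest mean of the guidance genes in saline, at 200.1 ± 33.3 FPKM, and at 159.6 ± 30.5 FPKM in Ang II it came after Slit3 at 197 FPKM. It codes for a secreted repellent that signals mainly through Nrp2. In saline it ran from 172 to 251 with a median of 179 FPKM, and in Ang II from 95.6 to 197 with a median of 162 FPKM. The groups overlapped, although 6 of 8 Ang II libraries lay below all saline libraries. The log2 fold change was -0.34 with a standard error of 0.14 (limma, adjusted p = 0.0671).

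Sema3b, a secreted semaphorin whose gene lies 72270 bases from Sema3f on chromosome 9 with 3 coding genes between them, was the class 3 member that passed. Its saline values ran from 35.9 to 77.8 with a median of 53.8 FPKM, and its Ang II values from 23.8 to 58.1 with a median of 38.4 FPKM. Saline 2 was the highest and Ang II 1 the lowest library, and the groups overlapped. The mean fell from 55.3 ± 13.2 to 39.2 ± 9.59 FPKM (SD, n = 8 each), a log2 fold change of -0.49 with a standard error of 0.17 (limma, adjusted p = 0.0299). The call was lost when any of Saline 2, Saline 7, Ang II 1 or Ang II 5 was left out, with adjusted p up to 0.0616 in limma. Sema3b also lost it in the Wilcoxon rank-sum test (adjusted p = 0.0573) and with no filter on low genes (limma, adjusted p = 0.0611).

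The other class 3 semaphorins did not pass. Sema3c, which guides cells of the cardiac outflow tract through Nrp1 and plexins, was at 51.3 ± 22.2 FPKM in saline and 53.2 ± 10.5 FPKM in Ang II. Sema3d was at 27.8 ± 13.3 and 27.5 ± 7.17 FPKM, and Sema3a, the founding axon repellent of the class, at 9.26 ± 3.74 and 8.61 ± 3.34 FPKM. These 3 genes spread more widely between saline libraries than between Ang II libraries. Sema3g, a semaphorin known from endothelium, was at 6.23 ± 2.59 and 4.46 ± 1.75 FPKM. Sema3e, a ligand that binds Plxnd1 without a neuropilin, was under 3 FPKM on average in both groups. Summed over the class the level was 351 ± 30.8 FPKM in saline and 295 ± 47.1 FPKM in Ang II, and Sema3f made up 57.0% and 54.0% of it.

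Of 13 membrane-anchored semaphorins 11 were tested, 3 were lower with Ang II and 8 did not pass. Sema6c, a transmembrane semaphorin, fell most over all 16 libraries. Its saline libraries ran from 7.89 to 38.6 with a median of 11.8 FPKM, and its Ang II libraries from 2.38 to 6.85 with a median of 4.29 FPKM. No Ang II library reached the lowest saline library, and Saline 8 lay far above the other saline libraries. The mean fell from 15.8 ± 10.3 to 4.50 ± 1.40 FPKM, a log2 fold change of -1.47 with a standard error of 0.27 (limma, adjusted p = 0.000606). Without Saline 2, Saline 7 and Saline 8 it was -1.01 (limma, adjusted p = 0.000711).

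Sema5a, a semaphorin with thrombospondin repeats that can attract or repel, was between 9.87 and 42.0 with a median of 28.9 FPKM in saline and between 8.85 and 18.0 with a median of 13.4 FPKM in Ang II. The groups overlapped only through Saline 2 and Saline 8, the saline libraries below the highest Ang II library. The log2 fold change was -0.93 with a standard error of 0.25 (limma, adjusted p = 0.00893). Sema4c, a ligand of Plxnb2, ran from 9.60 to 17.9 with a median of 13.2 FPKM in saline and from 6.57 to 11.6 with a median of 10.3 FPKM in Ang II. The groups overlapped, and 3 of 8 Ang II libraries lay below all saline libraries. Its log2 fold change was -0.51 with a standard error of 0.14 (limma, adjusted p = 0.0121). Of its exon bases 7.3% are shared with D430040D24Rik, so reads there could belong to either gene.

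Sema4d, the ligand of Plxnb1 that is best known from immune cells, was at 8.08 ± 4.09 FPKM in saline and 9.70 ± 3.67 FPKM in Ang II and did not pass. Sema7a, which is tied to the membrane by a lipid anchor and binds Plxnc1 and integrins, was at 5.07 ± 1.53 and 3.97 ± 1.54 FPKM and did not pass. The remaining members tested, Sema4a, Sema4b, Sema4g, Sema6a, Sema6b and Sema6d, stayed under 4 FPKM on average in both groups and did not pass. Summed over the 13 genes the level was 85.6 ± 12.4 FPKM in saline, with a lowest library of 69.8, and 53.7 ± 6.86 FPKM in Ang II, with a highest library of 61.8. This sum carries no test, and most of its fall came from the genes called lower. Between saline and Ang II the mean of Sema5a went from 28.2 to 13.3 FPKM. That of Sema6c went from 15.8 to 4.50 FPKM and that of Sema4c from 13.7 to 9.34 FPKM.

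Sema5b was too low to be tested, at 0.719 ± 0.492 FPKM in saline and 0.143 ± 0.10 FPKM in Ang II, or 1 to 54 reads a library. In 7 of 8 Ang II libraries it lay below all saline libraries. With no filter on low genes it differed by -0.55 on the log2 scale (limma, adjusted p = 0.0097), and 10.2% of all genes above 0 were called lower in that fit. It is named because of these values, which were seen first.

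Of the 9 plexins, the receptors that carry an intracellular domain acting on Ras and Rap GTPases, 8 were tested and 1 was lower with Ang II. Plxnb1, the receptor of Sema4d, ran from 57.3 to 145 with a median of 67.6 FPKM in saline and from 27.3 to 67.6 with a median of 40.7 FPKM in Ang II. In 7 of 8 Ang II libraries it lay below all saline libraries, the exception being Ang II 2. The mean fell from 81.3 ± 30.3 to 42.6 ± 11.9 FPKM, a log2 fold change of -0.89 with a standard error of 0.20 (limma, adjusted p = 0.00243). Its share of all plexin FPKM was 30.2 ± 8.07% in saline and 18.5 ± 4.98% in Ang II, and the groups overlapped in that share. Exons shared with Gm7628 make up 2.7% of its length.

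The most abundant plexin, Plxnb2, was at 87.3 ± 11 FPKM in saline and 84.9 ± 15.0 FPKM in Ang II, a log2 fold change of -0.05 with a standard error of 0.11. Plxnd1, the receptor of Sema3e in endothelium, was at 52.3 ± 12.6 and 53.4 ± 15.9 FPKM. Neither passed. The A-type plexins, which pair with neuropilins, did not pass either. Plxna1 was at 17.4 ± 4.91 and 23.0 ± 4.13 FPKM, and Plxna2 at 11.4 ± 3.93 and 14.4 ± 3.98 FPKM. Plxna4 was at 9.30 ± 3.65 and 7.36 ± 2.60 FPKM, and Plxna3 at 5.45 ± 2.02 and 4.15 ± 1.16 FPKM. Plxna1 was called higher after median ratio scaling, at 0.55 on the log2 scale (limma, adjusted p = 0.0139).

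Both neuropilins were tested. Nrp1, the co-receptor of Sema3a and of vascular endothelial growth factor, ran from 21.3 to 34.1 with a median of 25.0 FPKM in saline and from 9.92 to 23.4 with a median of 19.7 FPKM in Ang II. The groups overlapped, with 5 of 8 Ang II libraries below all saline libraries. The mean fell from 26.2 ± 4.75 to 18.9 ± 4.28 FPKM, a log2 fold change of -0.47 with a standard error of 0.15 (limma, adjusted p = 0.0243). Median ratio scaling ended the call, at -0.33 (limma, adjusted p = 0.117). Nrp2 was near 1 FPKM, at 0.716 ± 0.436 and 1.24 ± 0.515 FPKM, and did not pass.

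**Figure D2:**
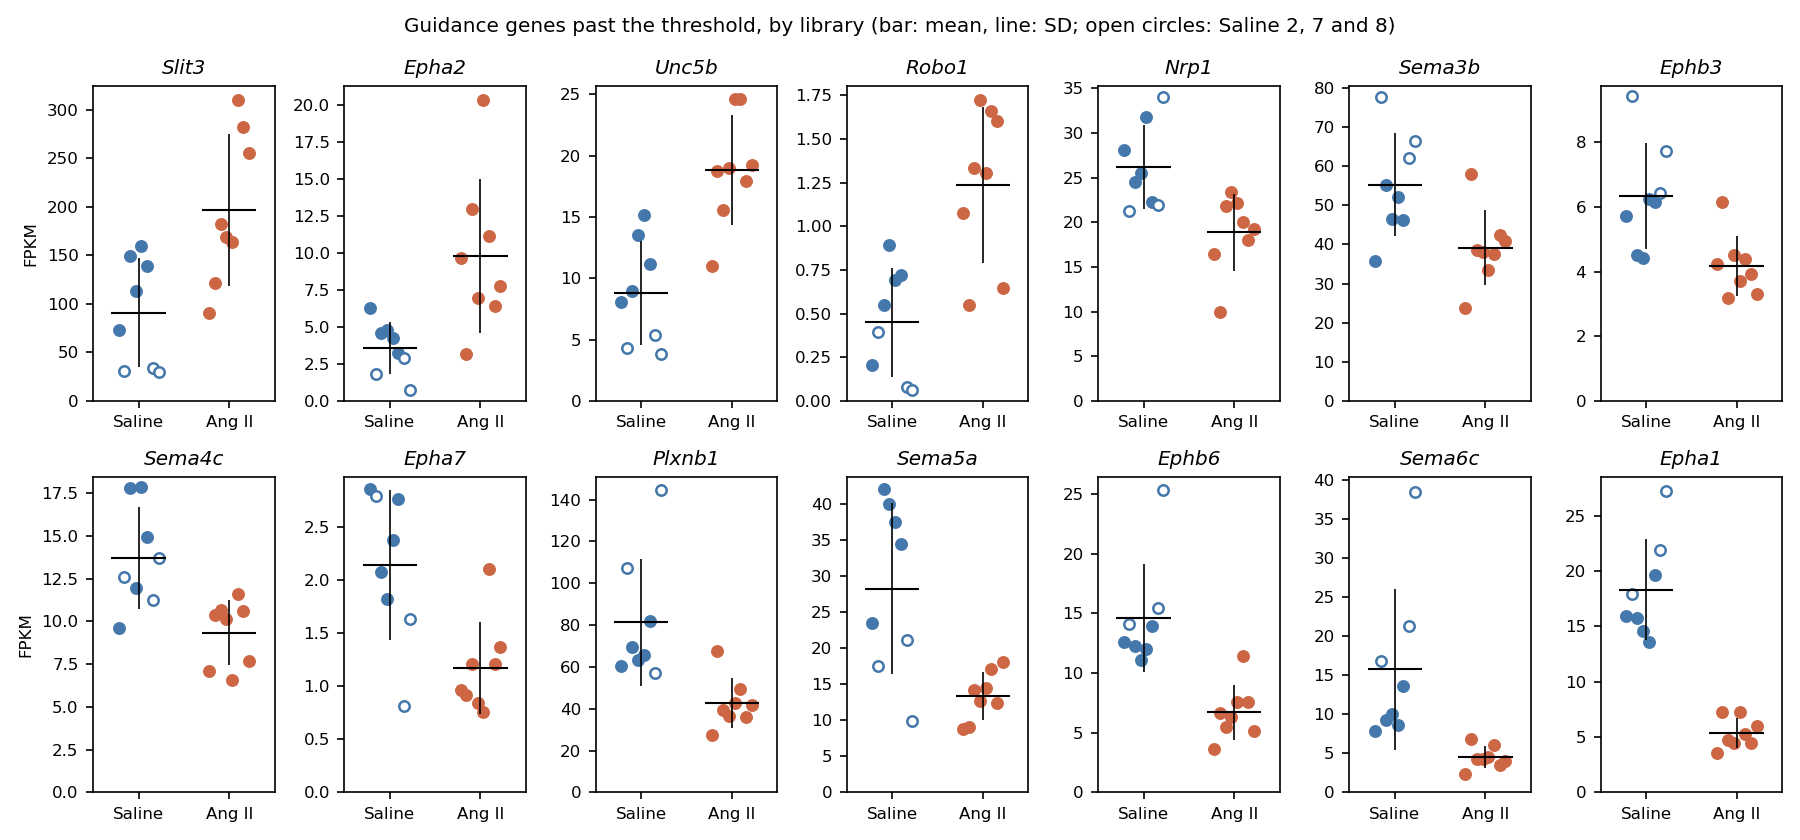
FPKM of the 14 guidance genes past the threshold in each library (points), with the group mean (bar) and SD (line), and with Saline 2, Saline 7 and Saline 8 as open circles. Epha1 and Sema6c show no overlap, and the open circles are the 3 lowest points for Slit3 and Unc5b.

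Slit3 had the largest log2 fold change among the 4 higher genes on the log2(FPKM + 1) scale over all 16 libraries. With limma voom on the recovered reads Robo1 (1.78) and Epha2 (1.46) were above Slit3 (1.32). Slits are cleaved, secreted ligands, and Slit3 made up 98.2 ± 0.805% of all Slit FPKM in saline and 98.9 ± 0.851% in Ang II. Its saline libraries ran from 29.7 to 159.6 with a median of 93.2 FPKM, and its Ang II libraries from 91.0 to 311 with a median of 176 FPKM. The saline libraries were split: Saline 2, Saline 7 and Saline 8 lay between 29.7 and 33.7 FPKM, and the other 5 between 73.6 and 159.6 FPKM. In 6 of 8 Ang II libraries Slit3 lay above all saline libraries, the exceptions being Ang II 1 and Ang II 2. The mean rose from 91.0 ± 55.9 to 197 ± 78.1 FPKM, a log2 fold change of 1.30 with a standard error of 0.39 (limma, adjusted p = 0.0158). Without those 3 saline libraries the value was 0.58 and did not pass (limma, adjusted p = 0.12). Slit2, the ligand with the best studied action on Robo1, was at 1.26 ± 0.538 and 1.86 ± 0.591 FPKM and did not pass.

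Robo1 was the one Robo receptor above the level for testing. Its saline mean alone was under the 0.5 FPKM needed, so it entered the test only through its level in Ang II. With the stricter filter of 1 FPKM it was not tested. Its saline libraries ran from 0.0646 to 0.893 with a median of 0.472 FPKM, and its Ang II libraries from 0.548 to 1.72 with a median of 1.32 FPKM. In 6 of 8 Ang II libraries it lay above all saline libraries. The mean rose from 0.450 ± 0.313 to 1.24 ± 0.449 FPKM, which came from 3 to 100 reads a library. The log2 fold change was 0.63 with a standard error of 0.16 (limma, adjusted p = 0.00675). On the recovered reads it was 1.78 by limma voom, since a pseudocount of 1 FPKM shrinks the fold of so low a gene. Robo2 was found in 0 to 11 reads a library and Robo3 in 0 to 4. Robo4, the endothelial Robo, was in the list of partner genes at 0.785 ± 0.356 and 0.663 ± 0.180 FPKM and did not pass.

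Of 3 netrins 2 were tested and neither passed in limma, while 1 of the 2 had an unadjusted p under 0.05. Ntn1, the secreted netrin that binds Dcc, neogenin and Unc5 receptors, ran from 26.7 to 141 with a median of 102 FPKM in saline and from 45.3 to 88.7 with a median of 78.7 FPKM in Ang II. Saline 8 was the lowest library, and the 5 saline libraries other than Saline 2, Saline 7 and Saline 8 were all above the highest Ang II library. The log2 fold change was -0.20 with a standard error of 0.27 over all libraries, and -0.67 without those 3 saline libraries (limma, adjusted p = 0.00374). Ntn4, a netrin of vascular basement membranes that binds laminin, ran from 4.10 to 62.6 with a median of 32.4 FPKM in saline and from 22.5 to 77.8 with a median of 56.3 FPKM in Ang II. Its log2 fold change was 0.98 with a standard error of 0.45 (limma, adjusted p = 0.0983) over all libraries, and 0.14 without the same 3. The groups overlapped in both genes.

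The Unc5 receptors are single-pass netrin receptors with a death domain, and Unc5b is the one known from endothelium. Unc5b ran from 3.84 to 15.2 with a median of 8.48 FPKM in saline and from 11 to 24.6 with a median of 18.9 FPKM in Ang II. In 7 of 8 Ang II libraries it lay above all saline libraries, the exception being Ang II 1. The mean rose from 8.79 ± 4.23 to 18.8 ± 4.47 FPKM, a log2 fold change of 1.11 with a standard error of 0.24 (limma, adjusted p = 0.00234). Without Saline 2, Saline 7 and Saline 8 the value was 0.68 (limma, adjusted p = 0.00972).

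Unc5c was at 15.5 ± 6.77 FPKM in saline and 9.60 ± 2.82 FPKM in Ang II, a log2 fold change of -0.54 with a standard error of 0.26, and did not pass (limma, adjusted p = 0.12). Saline 8 was the lowest of all 16 libraries at 4.84 FPKM, and the 5 saline libraries other than Saline 2, Saline 7 and Saline 8 lay between 17.3 and 22.8 FPKM, above every Ang II library. Without Saline 8 the value was -0.74 (limma, adjusted p = 0.0124), and without the 3 saline libraries it was -1.03 (limma, adjusted p = 0.000221). Unc5b made up 36.4 ± 6.03% of the sum of Unc5b and Unc5c in saline, from 29.6% to 45.1%, and 66.0 ± 7.69% in Ang II, from 55.5% to 76.2%. The groups did not overlap in that share, and Saline 2, Saline 7 and Saline 8 lay within the range of the other saline libraries. It was computed after the values of the 2 genes had been seen and carries no test. Dcc, the attractive netrin receptor, was listed at 0 in all 16 libraries. Neogenin (Neo1), its relative, was at 52.9 ± 19.0 and 66.5 ± 13.7 FPKM and did not pass.

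**Figure D3:**
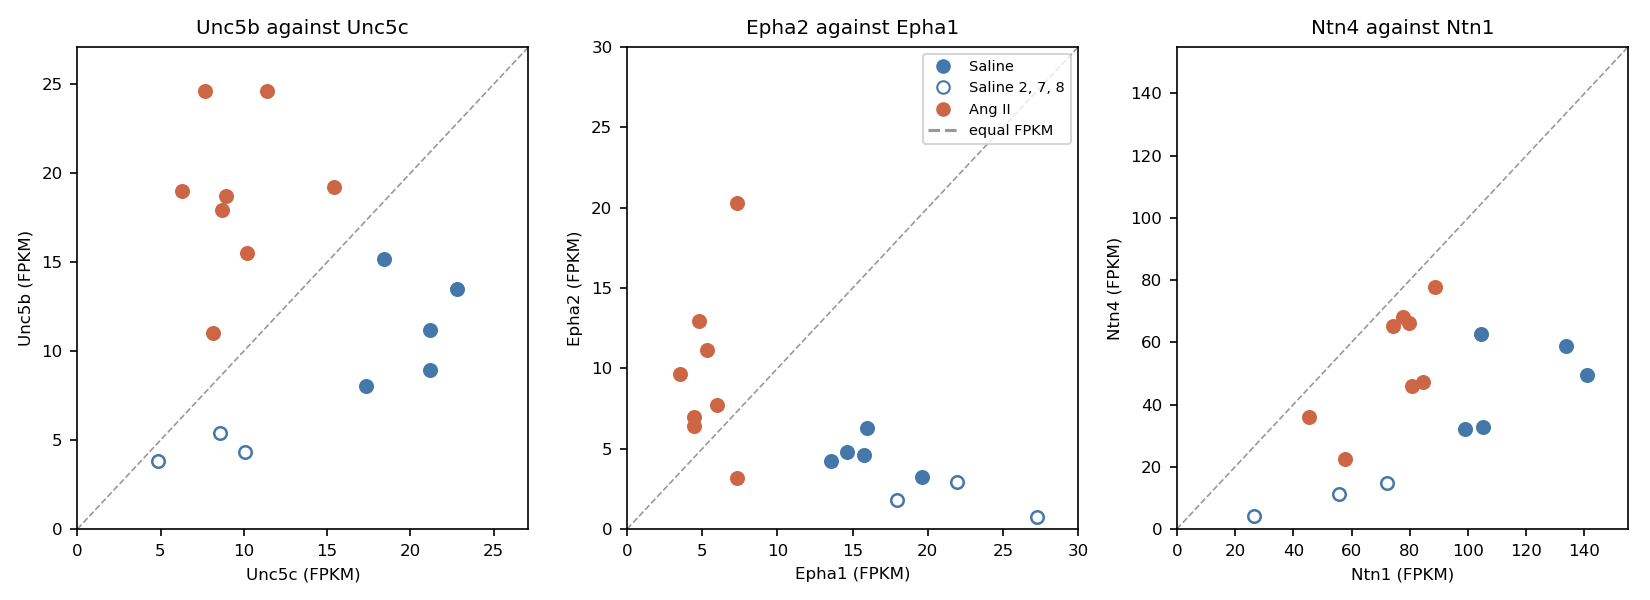
FPKM of 3 pairs of guidance genes in each library: Unc5b against Unc5c, Epha2 against Epha1 and Ntn4 against Ntn1 (both axes linear, dashed line at equal FPKM, open circles for Saline 2, Saline 7 and Saline 8). All Ang II libraries lie above the line for Unc5b and all saline libraries below it, 7 of 8 Ang II libraries lie above it for Epha2, and no library lies above it for Ntn4. The side of the line depends on the transcript lengths behind FPKM, so crossing it does not show which gene has more transcripts.

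The 5 ephrin-A genes, whose products are tied to the membrane by a lipid anchor, were all tested and none passed in limma, nor did any have an unadjusted p under 0.05. Efna5 was the most abundant, at 27.9 ± 10.6 FPKM in saline and 30.8 ± 5.42 FPKM in Ang II. Efna1, an ephrin induced by inflammatory signals in endothelium, was at 10.1 ± 1.87 and 8.81 ± 3.39 FPKM. Efna2, Efna3 and Efna4 were under 3 FPKM on average. Efna1, Efna3 and Efna4 are neighbours on chromosome 3, with gaps of 32756 and 10424 bases, and their log2 fold changes were -0.22, 0.30 and 0.02. Other gene models cover 14.1% of the exon bases of Efna3 and 10.5% of those of Efna4.

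Of the 9 EphA receptors 5 were tested, with Epha2 higher, Epha1 and Epha7 lower, and Epha3 and Epha4 not past the threshold. Epha1 (chromosome 6, 42358487 to 42373268, reverse strand) had the largest fall of the tested guidance genes over all 16 libraries. It ran from 13.6 to 27.3 with a median of 17.0 FPKM in saline and from 3.55 to 7.31 with a median of 5.04 FPKM in Ang II. The groups did not overlap. The mean fell from 18.3 ± 4.53 to 5.39 ± 1.37 FPKM, a log2 fold change of -1.59 with a standard error of 0.15 (limma, adjusted p = 1.14e-06). The value stayed between -1.77 and -1.42 in 31 other settings and was called lower in each. Zyx shares 6.0% of the exon bases of Epha1.

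Epha2 (chromosome 4, 141301240 to 141329384, forward strand), a receptor of Efna1 found in many epithelia, went the other way. It ran from 0.771 to 6.29 with a median of 3.73 FPKM in saline and from 3.17 to 20.3 with a median of 8.69 FPKM in Ang II. Only Ang II 2 lay within the saline range, and Saline 8 and Saline 2 were the lowest libraries. The mean rose from 3.58 ± 1.77 to 9.80 ± 5.21 FPKM, a log2 fold change of 1.21 with a standard error of 0.31 (limma, adjusted p = 0.00678). Of the sum of Epha1 and Epha2, Epha2 made up 2.75% to 28.3% in saline and 30.3% to 73.5% in Ang II, a share chosen after its values were seen. Without Saline 2, Saline 7 and Saline 8 Epha2 was higher by 0.82 on the log2 scale (limma, adjusted p = 0.0428).

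Epha7, a receptor of the A-type ephrins, was called at a low level. It ran from 0.816 to 2.86 with a median of 2.22 FPKM in saline and from 0.752 to 2.10 with a median of 1.08 FPKM in Ang II, and the groups overlapped. The log2 fold change was -0.52 with a standard error of 0.16 (limma, adjusted p = 0.0201). Epha3 was at 12.6 ± 4.40 FPKM in saline and 8.49 ± 2.00 FPKM in Ang II and did not pass, at -0.47 on the log2 scale (limma, adjusted p = 0.087). Leaving out Saline 8, its lowest library, gave -0.62 (limma, adjusted p = 0.00632).

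The 2 tested ephrin-B ligands, which span the membrane, did not pass in limma, nor did either have an unadjusted p under 0.05. Efnb2, the marker of arterial endothelium, ran from 7.41 to 59.2 with a median of 40.0 FPKM in saline and from 19.8 to 46.5 with a median of 39.7 FPKM in Ang II. Saline 7 and Saline 8 were the 2 lowest libraries, and the log2 fold change was 0.30 with a standard error of 0.35. Efnb1 was at 3.98 ± 0.841 and 4.13 ± 0.855 FPKM, and Efnb3 was too low to be tested.

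Of the 5 EphB receptors 3 were tested and 2 were lower with Ang II. Ephb6, a receptor whose kinase domain is inactive, ran from 11.1 to 25.3 with a median of 13.2 FPKM in saline and from 3.62 to 11.4 with a median of 6.46 FPKM in Ang II. In 7 of 8 Ang II libraries it lay below all saline libraries, the exception being Ang II 6. The mean fell from 14.6 ± 4.53 to 6.71 ± 2.30 FPKM, a log2 fold change of -1.03 with a standard error of 0.18 (limma, adjusted p = 0.000494). Ephb3, a receptor of the B-type ephrins, ran from 4.43 to 9.43 with a median of 6.20 FPKM in saline and from 3.17 to 6.17 with a median of 4.09 FPKM in Ang II. The groups overlapped, with 6 of 8 Ang II libraries below all saline libraries. Its log2 fold change was -0.49 with a standard error of 0.14 (limma, adjusted p = 0.0144). Ephb4, the venous receptor of Efnb2, was at 15.0 ± 2.40 and 12.2 ± 3.17 FPKM and did not pass (limma, adjusted p = 0.116).

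Summed over each family, EphA FPKM was 39.9 ± 4.63 in saline and 27.1 ± 6.65 in Ang II, and EphB FPKM was 36.6 ± 4.05 and 23.9 ± 4.53. The lowest saline sum of EphB was 33.3 FPKM and the highest Ang II sum was 30.3 FPKM. The ephrin-A sum was 41.8 ± 11.3 and 44.2 ± 7.48 FPKM, and the ephrin-B sum was 38.2 ± 19.0 and 40.7 ± 9.67 FPKM. These sums carry no test. Within the EphA sum the mean of Epha1 fell from 18.3 to 5.39 FPKM, while that of Epha2 rose from 3.58 to 9.80 FPKM. Epha3, Epha4 and Epha7 had lower means in Ang II by smaller amounts than Epha1.

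The 15 genes below the level for testing were Ephb2, Sema5b, Ephb1, Unc5a, Efnb3, Sema4f, Slit1, Ntn5, Robo2, Epha5, Plxnb3, Robo3, Epha10, Epha8 and Epha6. Their highest mean over the 16 libraries was 0.457 FPKM, in Ephb2, and Epha6 was listed at 0 in every library. Apart from Sema5b, none of the 14 that were above 0 was called in the fit without a filter, where Robo2 had the next smallest value (limma, adjusted p = 0.0678).

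**Figure D4:**
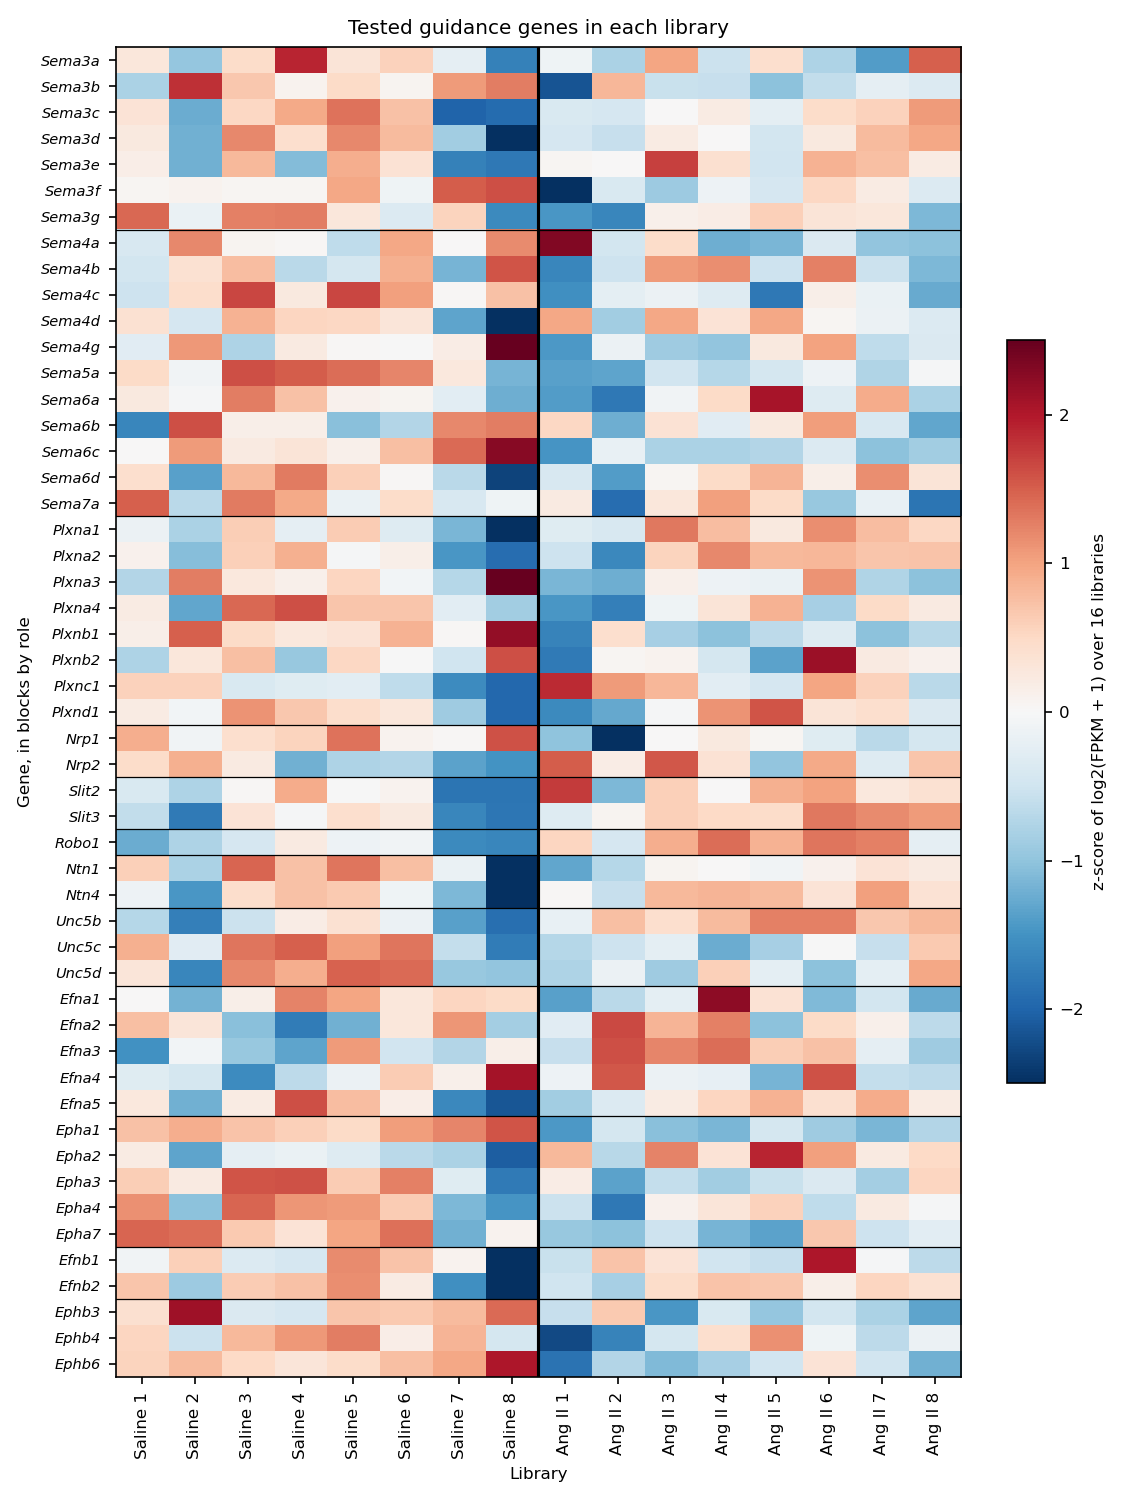
Level of the 51 tested guidance genes (rows, in blocks by role) in each of the 16 libraries (columns), as the z-score of log2(FPKM + 1) over the libraries. Saline 8, and less so Saline 2 and Saline 7, is low in genes such as Ntn1, Ntn4, Efnb2, Sema3d and Slit3 and high in Sema6c, Epha1 and Ephb6.

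Guidance receptors act through a set of co-receptors and cytoplasmic proteins, of which a list of 75 was drawn from textbook knowledge. Earlier results of these data were known when it was drawn, so its counts describe the list and carry no test. Of the 65 tested 12 were higher and 10 lower with Ang II, with a median log2 fold change of 0.13, against 9.54% higher, 24.9% lower and a median of -0.12 over all tested genes. After median ratio scaling 19 were higher and 8 lower, against 14.9% and 14.1% of all genes. Rnd1, a small GTPase that binds plexins, rose from 8.76 ± 2.72 to 22.9 ± 8.15 FPKM, or by 1.27 on the log2 scale (limma, adjusted p = 0.000316). Its relative Rnd3 rose from 26.3 ± 14.8 to 61.8 ± 18.3 FPKM (limma, adjusted p = 0.00169), while Rnd2, another of the same group, fell from 37.7 ± 8.15 to 14.4 ± 2.73 FPKM (limma, adjusted p = 1.09e-05). The groups did not overlap for Rnd2, and they overlapped for Rnd1 and Rnd3.

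Farp1, a guanine nucleotide exchange factor linked to class 6 semaphorins and A-type plexins, rose from 7.98 ± 1.54 to 18.0 ± 7.51 FPKM. Chn1, a Rac-inactivating protein that Eph receptors use, rose from 3.65 ± 0.711 to 6.99 ± 1.25 FPKM. Rras, the Ras-family GTPase on which plexins act, fell from 818 ± 159 to 486 ± 33.1 FPKM. Dpysl2, the collapsin response mediator downstream of Sema3a, fell from 10.6 ± 2.74 to 4.97 ± 0.978 FPKM, and Rgma, a ligand of neogenin, fell from 20.2 ± 4.13 to 10.7 ± 2.37 FPKM. In these 5 genes the groups did not overlap, and limma adjusted p ran from 0.000143 for Dpysl2 to 0.000386 for Rgma. These 5 and the Rnd genes were picked for the smallest adjusted p in their direction, which favours groups that do not overlap. Over all tested genes the groups did not overlap in 2.74%, higher with Ang II, and in 5.62%, lower.

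Saline 2, Saline 7 and Saline 8 stood apart from the other libraries over all tested genes, at -47.5, -67.6 and -108.8 on the first principal component, which held 46.9% of the variance. The other 13 libraries lay between -9.5 and 37.1. Fitted without these 3, 3 guidance genes were higher and 14 were lower, against 8.11% and 26.4% of all 14889 genes tested in that fit. Slit3 lost its call, as did Ephb3 and Sema3b. Unc5c, Epha3, Epha4, Ntn1, Plxna4 and Unc5d were called lower, at log2 fold changes from -1.03 for Unc5c to -0.40 for Unc5d. The remaining 11 calls held.

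Smooth muscle markers were present in all libraries, with sums of 9386 to 15698 FPKM in saline and 6761 to 11362 FPKM in Ang II, and 4 of 9 were lower with Ang II (Myh11, Smtn, Lmod1 and Des). Of 12 endothelial markers 1 was higher (Erg) and 3 were lower (Pecam1, Egfl7 and Cldn5). Of 7 fibroblast markers 2 were lower, Clec3b and Col14a1. Of 10 macrophage markers 3 were higher (Adgre1, Csf1r and Itgam), with sums of 20.2 to 643 FPKM in saline and 63.4 to 699 FPKM in Ang II. Itgam had a saline mean of 0.358 FPKM, under the 0.5 FPKM needed, and reached testing only through its Ang II mean of 2.23 FPKM. Of 9 tested adipocyte markers 1 was lower, Cidea. Of 11 Schwann cell markers 4 were tested and 2 were lower, with sums of 9.96 to 19.1 FPKM and 6.48 to 10.2 FPKM. Sox10 averaged under 0.25 FPKM in both groups. Of 8 neuron markers 4 were tested and 1 was higher, Uchl1, while Th, Dbh, Nefl and Snap25 averaged at most 0.102 FPKM. The 1 lymphocyte marker tested did not pass. These lists are short, and over all tested genes 9.54% were called higher and 24.9% lower, so the counts alone do not show a shift of a cell type.

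Scores of the endothelial, adipocyte, macrophage, Schwann and fibroblast lists were added to the fit one at a time. The smooth muscle score, from -0.15 to 1.02 in saline and from -1.194 to 0.183 in Ang II, was not fitted. Nor were scores of the neuron and lymphocyte lists. With the macrophage score Epha2 no longer passed, at 1.08 (limma, adjusted p = 0.0539), nor did Sema5a, at -0.84 (limma, adjusted p = 0.0649), and Nrp1, Sema3b and Sema4c lost their calls too, at -0.34, -0.31 and -0.44. With the Schwann score Slit3, Epha2, Unc5b and Plxnb1 moved to 0.85, 0.84, 0.73 and -0.63 and lost their calls. Epha7, Ephb3 and Sema4c lost theirs at -0.23, -0.19 and -0.39, while Nrp1 and Sema3b lost theirs at -0.48 and -0.47, close to the values without the score (-0.47 and -0.49). The Schwann score was higher in saline, from -0.245 to 0.952, than in Ang II, from -0.782 to -0.028, and Saline 7 was the one saline library within the Ang II range. With the adipocyte score Slit3, at 0.97 (limma, adjusted p = 0.0959), Epha7, at -0.49, Ephb3, at -0.37, and Sema3b, at -0.37, lost their calls. With the fibroblast score Epha7 did, at -0.50 (limma, adjusted p = 0.051). Epha1, Ephb6, Sema6c and Robo1 were called with each of the scores fitted. Robo1 had a saline mean under 0.5 FPKM and reached testing through its Ang II level. The part of cell makeup in the calls was not tested beyond these fits.

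**Figure D5:**
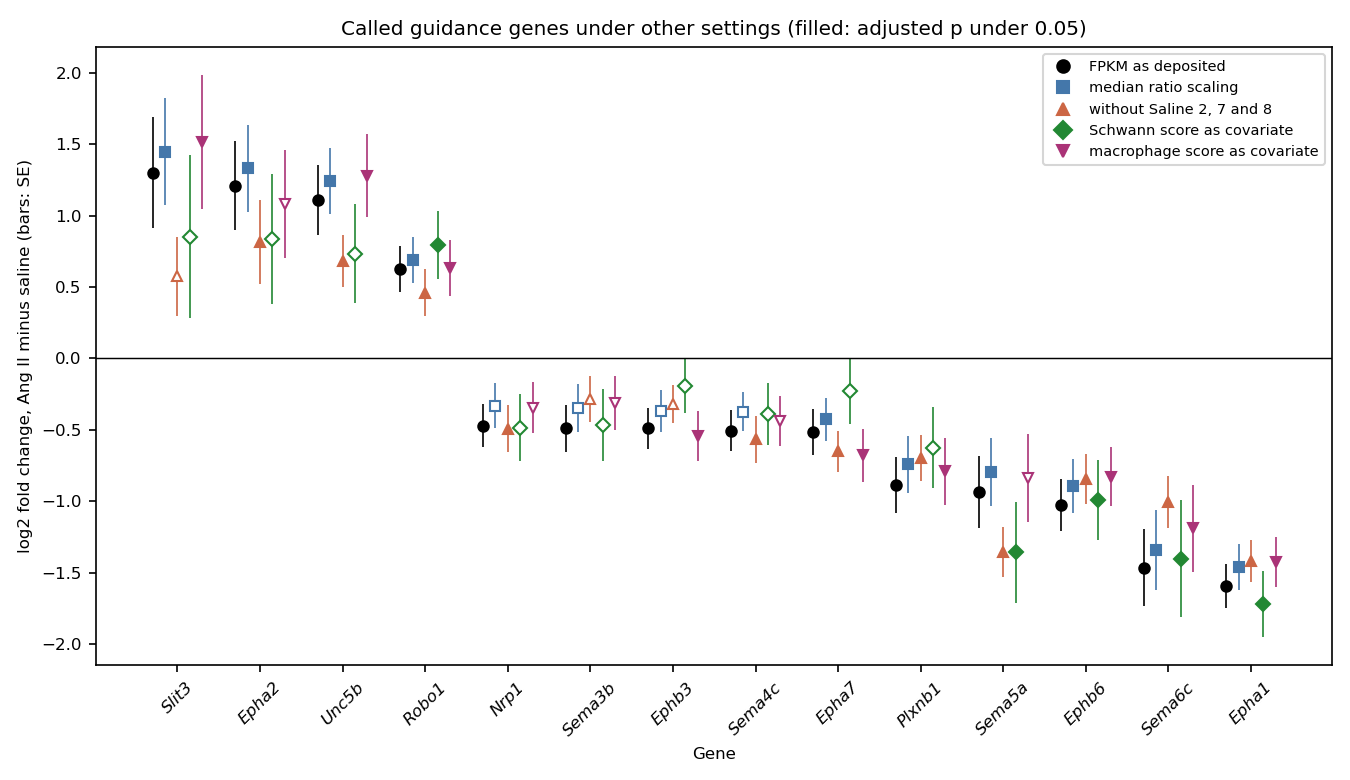
Log2 fold change (vertical axis, Ang II minus saline, bars are standard errors) of the 14 called guidance genes under 5 fits: FPKM as deposited, after median ratio scaling, without Saline 2, Saline 7 and Saline 8, and with the Schwann or macrophage score as a covariate. Points are filled where the adjusted p is under 0.05. Epha1, Sema6c, Ephb6 and Robo1 are filled in all 5 fits, and no point changes sign.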

How the data were processed

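RNA was extracted with Trizol from aortas and sequenced after SMARTER mRNA-seq preparation (per the labels' protocols), and the series holds 16 samples. In 1 table the authors deposited FPKM for 54532 genes. GRCm38, also called mm10, is the build named in the submitters' processing notes. Which aligner and counter were run, and whether strand was used, was not given in the sources used here. Columns were matched to samples by the library names in the labels, and groups were taken from the sample titles.

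The members and gene lists were chosen with earlier results of these data known. Of the gene IDs 99.77% were found in GENCODE M21, and all 66 members had the same coordinates there. FPKM divided by the value of 1 read at the mean transcript length gave whole numbers, within 0.02 of a read, for 95.81% to 96.28% of values above 0. Reads were recovered for 30814 of 31423 genes above 0 and for all 65 members above 0.

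The two-sided test was that of limma 3.58.1 (R 4.3.3), applied to log2(FPKM + 1) with its trend option, with Benjamini-Hochberg adjustment over 15007 genes at a mean FPKM of at least 0.5. It was also run on simulated data, in which each gene was drawn independently in each library. Such data hold no libraries set apart as Saline 2, Saline 7 and Saline 8 were, so they do not check the calls against these. FPKM errors are SDs over 8 libraries. Members past the threshold are described in full where their mean is at least 2 FPKM, others are named at a mean of at least 5 FPKM, and partner genes are the 4 in each direction that had the smallest adjusted p among those averaging 1 FPKM or more. A few further genes are named with their values as context. The alternatives were a pseudocount of 0.1, a stricter filter (mean of 1 FPKM) or none, median ratio and quantile scaling, sample weights, the replicate number as a block, a Wilcoxon rank-sum test, limma voom on the recovered reads, marker scores as covariates, leaving out each library and leaving out Saline 2, Saline 7 and Saline 8. The scores fitted were endothelial, adipocyte, macrophage, Schwann and fibroblast, the last added after seeing the data. Overlapping exons were measured with bedtools 2.31.1, counting both strands. Some marker genes are not reported here by name.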

Additional observations from a re-analysis of the deposited data

Results flagged for a closer look

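In 9 of the 102 groups looked at (51 tested guidance genes in 2 groups), 1 library lay apart from the other 7 of its group, with a gap above Dixon's critical share of the group's range at the 95% level. For independent, normally distributed values chance gives such a gap in about 0.05 of groups. FPKM values need not meet this, and genes measured in the same libraries are not independent, so 0.05 is only a guide. In all 9 the library set apart was the highest of its group.

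Saline 8 was the library set apart in 3 genes. Sema6c was at 38.57 FPKM there and at 7.89 to 21.3 in the other saline libraries. Ephb6 was at 25.28 FPKM against 11.1 to 15.4, and Sema4g at 2.378 FPKM against 0.538 to 1.32. Both called genes, Sema6c and Ephb6, stayed lower with Ang II when Saline 8 was left out.

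Ang II 6 was set apart in 3 genes. Plxnb2 was at 116.1 FPKM there and at 66.0 to 88.1 in the other Ang II libraries, Efnb1 at 5.986 FPKM against 3.48 to 4.61, and Epha7 at 2.1 FPKM against 0.752 to 1.37. Epha7 kept its call when any single library was left out. It lost the call in the Wilcoxon rank-sum test (adjusted p = 0.0573) and with no filter on low genes (limma, adjusted p = 0.0538).

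The other 3 were in single Ang II libraries. Sema4a was at 7.906 FPKM in Ang II 1 and at 1.16 to 3.24 in the others, and without that library it was called lower, at -0.57 on the log2 scale (limma, adjusted p = 0.0354). Efna1 was at 16.6 FPKM in Ang II 4 and at 6.27 to 10.1 in the others. Ephb3 was at 6.167 FPKM in Ang II 2 and at 3.17 to 4.50 in the others, and it kept its call when any single library was left out.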

How the results depend on the processing

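Over the 51 tested guidance genes and the 8 named partner genes, 1678 of 1823 values under other settings kept their direction and their side of the threshold, 38 lost the call and 39 gained one. A further 68, in 17 genes, turned in direction without a call in either fit, such as Efnb2, Efna5, Sema3c and Sema3d without Saline 2, Saline 7 and Saline 8. No value that was called in either fit turned in direction. With the endothelial score as a covariate 9 guidance genes were called higher, and with the Schwann score 2 were called higher and 4 lower. Lower calls numbered 6 after median ratio scaling, 16 with sample weights and 6 with the macrophage score. Partner genes called higher numbered 19 after median ratio scaling, 7 with the macrophage score and 6 with the Schwann score, and 6 were called lower with the Schwann score. For the fits counted in this section other than median ratio scaling, the share called over all tested genes is not given. A shift of the whole table can therefore not be told apart from a change in these genes, and the cause was not tested. Leaving out each library in turn gave 4 to 6 guidance genes higher and 9 to 12 lower, and 10 to 14 partner genes higher and 8 to 10 lower.

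The fit with the replicate number as a block called 6 guidance genes higher and 10 lower, and added Ntn4 (limma, adjusted p = 0.0491) and Plxnc1 (limma, adjusted p = 0.0363). Same-numbered libraries deviated together with correlations from -0.246 to 0.385, and 2 of the 8 matched best with their own number, so the numbers were not taken to pair the samples. Depth limits genes such as Robo1, with as few as 3 reads in a library, and the 15 untested genes.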

Other observations

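The symbol rule also takes 3 antisense genes of Plxna4 that the table does not call protein coding. Plxna4os1 was at 0.183 ± 0.134 FPKM in saline and 0.213 ± 0.219 FPKM in Ang II, with at most 23 reads a library. Plxna4os2 and Plxna4os3 had at most 4 and 2 reads a library. Whether counting used strand is not stated, so reads of Plxna4 and of these genes may not be told apart where they overlap.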
